A study of Homo sapiens with 6 samples.

Results

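The genes described here encode the proteins of the cytosolic ribosome. They were taken by name from a table of gene expression in AGS, an adenocarcinoma line from a human stomach tumour. A gene was included if its symbol was RPL or RPS with a number, with or without a closing A, X, L, AL or L1, or if it was RPLP0, RPLP1, RPLP2 or RPSA; pseudogenes were not included. The rule found 85 genes of 58735, of which 32 belong to the small subunit and 53 to the large subunit. Of the 85, 8 are paralogs whose names end in L, AL or L1. Polyadenylated RNA was sequenced 48 h after transfection with Lipofectamine of a control siRNA (siNC, 3 libraries) or of an siRNA against RBM8A (siRBM8A, 3 libraries). The cells of both groups were labelled wild type, and all 6 libraries carried 1 batch label. The line is a single tumour line and 1 siRNA label stands for each group, so that effects of RBM8A loss and of the siRNA on other genes cannot be told apart. The values are FPKM, fragments scaled by the length of the exons of a gene and by the size of the library.

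The ribosome reads mRNA with its small subunit and joins amino acids in its large subunit. Its proteins are made from some of the most abundant mRNAs of a growing cell, in nearly equal molar amounts, and most of these mRNAs begin with a run of pyrimidines, the terminal oligopyrimidine (TOP) motif, through which their translation follows growth signals. Many of their introns also hold small nucleolar RNAs (snoRNAs), which guide the modification of ribosomal RNA. RBM8A, also called Y14, belongs to the core of the exon junction complex. Splicing leaves this complex on mRNA, where it takes part in nonsense-mediated decay. In human cells a form of the RPL3 mRNA that keeps part of an intron is a known substrate of that decay. The FPKM values count all forms of a gene together.

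The start of the transcript was looked at first, because the TOP motif is the sequence that most of these genes share. A run of at least 5 bases C or T that opens with C within 5 bases of the annotated start was found in 52 of the 68 members that matched a RefSeq promoter (GRCh38.p14), which is 76.5%. The same run was found at 22.7% of 8376 matched protein-coding genes that were tested and at 21.1% of all 35116 promoters. For members and tested genes only the first listed RefSeq start of a gene was used, so that any other start was not looked at. The 35116 promoters were taken as listed, without this choice. It was present in 50 of 62 members outside the paralogs and in 2 of 6 paralogs. The windows below are the sense strand, 5′ to 3′, with 15 bases before the RefSeq start and 15 from it. Capitals mark the run of C and T, and a window without capitals holds no run that meets this rule. The first 4 lines set the paralogs with the largest difference between the groups beside their parent genes, and the other 6 lines are from the other members described in most detail.
RPL22L1: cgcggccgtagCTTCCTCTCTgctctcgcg
RPL22: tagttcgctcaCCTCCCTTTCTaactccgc
RPS27L: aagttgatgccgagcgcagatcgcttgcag
RPS27: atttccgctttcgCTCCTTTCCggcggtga
RPL13A: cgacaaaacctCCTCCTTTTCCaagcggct
RPS9: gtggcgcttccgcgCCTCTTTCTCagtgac
RPL35: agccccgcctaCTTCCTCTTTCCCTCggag
RPL15: ggcgctggggcctgctggaggagcttcacg
RPS26: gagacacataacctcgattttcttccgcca
RPLP0: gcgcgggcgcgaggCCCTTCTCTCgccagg
The windows lie at chr3:170870181-170870210 on the minus strand for RPL22L1, chr1:6199581-6199610 on the minus strand for RPL22, chr15:63157463-63157492 on the minus strand for RPS27L and chr1:153990747-153990776 on the plus strand for RPS27. Those of the other 6 lie at chr19:49487593-49487622 (plus) for RPL13A, chr19:54200843-54200872 (plus) for RPS9, chr9:124861943-124861972 (minus) for RPL35, chr3:23916530-23916559 (plus) for RPL15, chr12:56041903-56041932 (plus) for RPS26 and chr12:120201097-120201126 (minus) for RPLP0. RPL22 and RPL22L1 both have the run, while RPS27 has it and RPS27L does not. Members with the run lie on both sides of the comparison below: RPL13A, RPS9, RPLP0 and RPL22L1 had a log2 fold change above 0, and RPL35 and RPL22 had one below 0. Members without a run by this rule lie on both sides as well. RPS27L, RPL15 and RPS26 had a log2 fold change below 0, and RPL26L1 and RPL7L1, not shown, had one above 0. The RPS26 window does hold a pyrimidine run that opens with C, but it starts just past the 5 bases allowed.

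The knockdown was visible in the targeted gene. RBM8A was at 15.3, 13.2 and 14.8 FPKM in the siNC libraries and at 3.25, 2.23 and 3.38 FPKM in the siRBM8A libraries, so that the groups did not overlap. Its mean fell from 14.4 ± 1.08 to 2.95 ± 0.630 FPKM (SD, n = 3), which is 20.5% of siNC, with a log2 fold change of -1.97 (SE 0.142, limma adjusted p = 0.00544). An exact two-sided permutation test gave p = 0.1, and 3 libraries against 3 can give none smaller. Leaving out siRBM8A replicate 3 gave -2.05 with a limma adjusted p of 0.0544. The libraries rested on 14838527 to 16561306 fragments. Of 8 epithelial markers, 7 were at 38.0 to 713 FPKM in every library and CDH1 was at 2.73 to 3.82 FPKM. Of 11 leukocyte, endothelial and fibroblast markers, PTPRC and DCN were at 0 in all libraries, COL1A1 was at 3.41 to 4.64 FPKM and the other 8 did not exceed 0.205 FPKM.

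The members were among the most abundant transcripts of these cells. Of the 85, 82 had a mean of at least 1 FPKM and were tested. Their median level was 170 FPKM, against 6.63 FPKM over all 12678 genes tested. The highest was RPL13A at 1056 FPKM, and the small-subunit gene RPS2 was among the next highest at 718 FPKM. The 3 members that were not tested are paralogs known from other tissues: RPL3L from striated muscle, and RPL10L and RPL39L from the male germ line. RPL10L and RPL39L were listed at 0 in all 6 libraries. RPL3L was at 0.0218, 0.0682 and 0.0434 FPKM in siNC and at 0.107, 0.223 and 0.191 FPKM in siRBM8A. The groups did not overlap for RPL3L, but these values rest on 6 and 23 fragments in all.

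The low end of the range held genes that share exons with another protein-coding gene on the same strand. The 7 lowest members outside the paralogs, which include RPS10, RPL17, RPL36A, RPL26, RPS15A and RPL22, had means from 1.15 to 17.4 FPKM. The other 70 members outside the paralogs lay between 31.7 and 1056 FPKM. Each of the 7 overlaps exons of another protein-coding gene on the same strand in the GENCODE 29 annotation, and that partner was listed at 0 in these libraries. RPS10 shares 39.4% of its exon bases with its read-through partner RPS10-NUDT3, and RPL17 shares 32.7% with RPL17-C18orf32. RPL22 shares 4.93% with its partner. Among the other tested members only RPL36 and RPS13 overlap a same-strand coding gene, and in those the partner was above 0. Same-strand overlap with genes of other types was found among the highest members too. It covered 25.6% of the exon bases of RPS2 and 17.3% of those of RPL13A. The sources used here do not say how reads in overlapping genes were assigned, and the part of this in these levels was not tested. The absolute levels of these 7 genes are therefore uncertain, which bears on the paralog ratios of RPL22, RPL26 and RPL36A below.

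**Figure D1:**
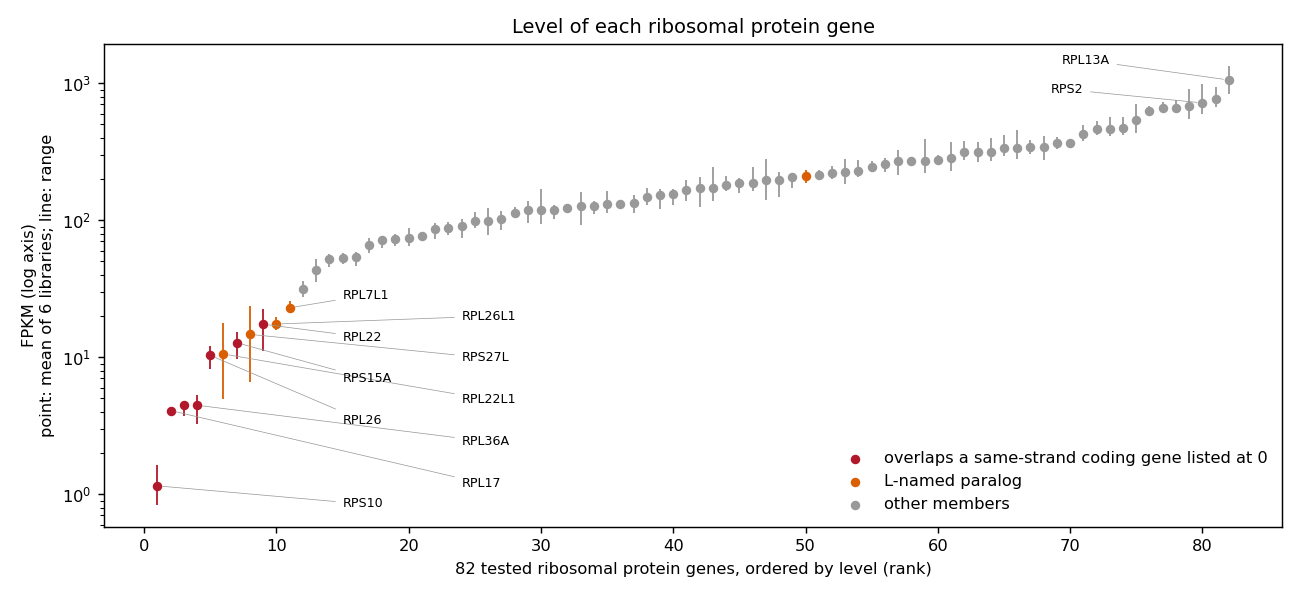
The mean level of each of the 82 tested ribosomal protein genes in FPKM (log axis), ordered from lowest to highest, with a line from the lowest to the highest of the 6 libraries. The 7 genes that overlap a same-strand coding gene listed at 0 (red) lie at 1.15 to 17.4 FPKM, 4 of the 5 tested paralogs (orange) lie in the same range or just above it, and the other members (grey) start at 31.7 FPKM.

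By the median over genes, the ribosomal protein genes had nearly the same level in siRBM8A as in siNC, while a few single genes differed in opposite directions. This median gives each gene the same weight. Across the 82 members the log2 fold change went with log2 mean FPKM at r = 0.22 and rho = 0.36, and the summed share of the library is given below. The median log2 fold change of the 82 members was 0.02, with quartiles of -0.11 and 0.14. Over all genes tested the median was -0.01, with quartiles of -0.23 and 0.19. The log2 fold change was above 0 in 46 members and below 0 in 36. The median was 0.01 for the 32 small-subunit members and 0.05 for the 50 tested large-subunit members. In RNA from whole cultures, fewer cells of a type and less RNA per cell cannot be told apart.

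None of the 82 members passed an adjusted p of 0.05 in limma, where 5.59% of all genes tested did. An unadjusted limma p under 0.05 was reached by 9 of the 82 members, against 26.3% of all genes: RPL12, RPL13A, RPL22L1 and RPS9 on the higher side, and RPL15, RPL35, RPL36AL, RPS26 and RPS27L on the lower side. limma-voom on the fragments recovered from the FPKM called 2 members, RPL13A as higher and RPL35 as lower, against 8.01% of all genes. The siNC and siRBM8A libraries did not overlap for 16 members, or 19.5%, against 31.3% of all genes. Of those 16, 9 were higher in siRBM8A (RPL10A, RPL11, RPL12, RPL13A, RPL14, RPL22L1, RPL26L1, RPS9 and RPS12) and 7 were lower (RPL15, RPL23, RPL35, RPL36AL, RPL41, RPS26 and RPS27L). A difference of at least 1.5-fold was reached by RPL22L1 and RPS27L alone, 2.44% of the members, against 8.68% of all genes. The shares of members are below the background shares under each of these rules, and no test was made of the list as a whole.

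Same-numbered libraries of the 2 groups deviated alike, which the unpaired fit does not use. Among the members, the deviations from the group means correlated between same-numbered libraries of the 2 groups at 0.844, 0.925 and 0.619. Over all genes tested these values were 0.507, 0.663 and 0.102. Correlations between differently numbered libraries were not set beside them. The deviations within a group cancel out, and replicate 2 of both groups shared a GC trend, described below. These values alone therefore do not show that every number marks a pair. With the replicate number as a block, limma called 25 of the 82 members (30.5%), against 40.2% of all genes tested. Of these 25, 15 were higher in siRBM8A (18.3% of members, against 18.9% of all genes) and 10 were lower (12.2%, against 21.3%). The 15 included RPL3, RPL8, RPL10A, RPL12, RPL13A, RPL22L1, RPL26L1, RPL27A, RPL28, RPLP0, RPS2, RPS9, RPS12 and RPS18. The 10 were RPL5, RPL15, RPL22, RPL23, RPL35, RPL36AL, RPS7, RPS13, RPS26 and RPS27L. The differences behind these calls were small: apart from RPL22L1 and RPS27L, the log2 fold changes of the 25 lay between -0.42 and 0.51.

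**Figure D2:**
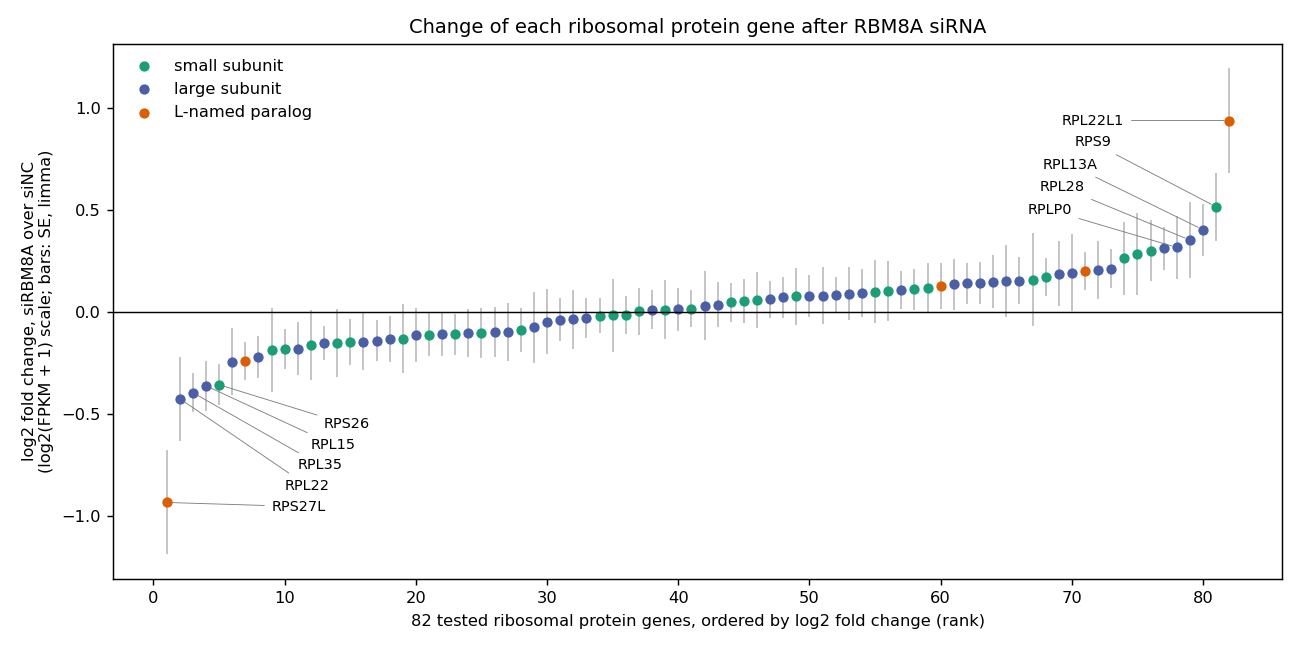
The log2 fold change (siRBM8A over siNC, on the log2(FPKM + 1) scale) of each of the 82 tested ribosomal protein genes, ordered by rank, with bars of 1 standard error from limma. Most points lie within the quartiles of -0.11 and 0.14 or close to them; the paralogs RPS27L at -0.93 and RPL22L1 at 0.94 stand at the 2 ends.

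Among the small-subunit genes, RPS9 had the highest log2 fold change outside the paralogs. RPS9 (chr19:54200742-54249003, GRCh38, plus strand) encodes a protein of the small-subunit body that is needed for early subunit assembly. It was at 141, 189 and 158 FPKM in siNC and at 194, 278 and 228 FPKM in siRBM8A. Every siRBM8A library was above every siNC library. RPS9 had a log2 fold change of 0.51 (SE 0.168, limma adjusted p = 0.117; 0.00202 with the replicate block), and the same-numbered differences were 0.46, 0.56 and 0.52.

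RPS26 was the small-subunit gene with the lowest log2 fold change outside the paralogs. Its protein (gene at chr12:56041351-56044697, plus strand) lies at the exit of the mRNA channel, and its loss of function in people causes Diamond-Blackfan anaemia. RPS26 was at 135, 137 and 130 FPKM in siNC and at 95.9, 115 and 103 FPKM in siRBM8A. All siRBM8A libraries were below all siNC libraries. RPS26 had a log2 fold change of -0.36 (SE 0.1004, limma adjusted p = 0.0850; 0.00860 with the replicate block). Of the 50-base windows of its longest transcript, 27.3% also occur in other genes, 26 of them pseudogenes.

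RPS2, whose protein lies near the mRNA entry of the small subunit, is one of the members of highest level. It was at 593, 742 and 612 FPKM in siNC and at 650, 993 and 720 FPKM in siRBM8A. The groups overlapped, with the replicate 2 library highest in each. RPS2 had a log2 fold change of 0.26 (SE 0.177, limma adjusted p = 0.395; 0.0312 with the replicate block), and 63.2% of its 50-base windows occur in other genes.

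RPS12 and 3 genes of the large subunit are named here after their values were seen, because their groups did not overlap. RPS12 was at 603, 642 and 621 FPKM in siNC and at 653, 753 and 697 FPKM in siRBM8A, a log2 fold change of 0.17 (limma adjusted p = 0.293; 0.0383 with the replicate block). RPL10A, whose protein forms the flexible L1 stalk at the exit site for transfer RNA, was at 308, 333 and 306 FPKM in siNC and at 339, 388 and 369 FPKM in siRBM8A, a log2 fold change of 0.21 (limma adjusted p = 0.216; 0.0210 with the replicate block). RPL12, whose protein lies at the base of the stalk that recruits elongation factors, was at 277, 298 and 264.5 FPKM in siNC and at 316, 374 and 354 FPKM in siRBM8A, a log2 fold change of 0.31 (limma adjusted p = 0.121; 0.0124 with the replicate block). All 3 genes were higher in each siRBM8A library than in any siNC library. RPL23, whose protein is among those that bind MDM2 when free of the ribosome, was on the other side. It was at 87.7, 74.0 and 79.4 FPKM in siNC and at 69.0, 64.8 and 72.5 FPKM in siRBM8A, a log2 fold change of -0.22 (limma adjusted p = 0.231; 0.0289 with the replicate block).

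Among the large-subunit genes, RPL13A had the highest log2 fold change outside the paralogs and also the highest listed FPKM of all members. Its protein (gene at chr19:49487554-49492308, plus strand) can leave the ribosome after phosphorylation and silence certain inflammatory mRNAs in myeloid cells, and its introns hold 4 snoRNAs. RPL13A was at 830, 1022 and 876 FPKM in siNC and at 1064, 1338 and 1207 FPKM in siRBM8A. Every siRBM8A library was above every siNC library. RPL13A had a log2 fold change of 0.40 (SE 0.126, limma adjusted p = 0.107; 0.00407 with the replicate block), which is 1.32-fold in mean FPKM. When each gene was summed with its named pseudogenes, RPS2 was above RPL13A in every siNC library and in siRBM8A replicate 2. It was below RPL13A in siRBM8A replicates 1 and 3.

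RPL35 had the smallest adjusted p of all members. Its protein (gene at chr9:124857880-124861981, minus strand) sits at the exit of the peptide tunnel, where chaperones and the signal recognition particle bind. RPL35 was at 381, 413 and 375 FPKM in siNC and at 276, 308 and 304 FPKM in siRBM8A. The groups did not overlap, with the lowest siNC library at 375 FPKM and the highest siRBM8A library at 308 FPKM. RPL35 had a log2 fold change of -0.39 (SE 0.0939, limma adjusted p = 0.0582; 0.00466 with the replicate block). It was also called, with no block, when FPKM sums were made equal, after GC correction, by limma-voom, and in the 4 libraries that are not replicate 2.

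RPL15, a protein of the large-subunit core (gene at chr3:23916545-23924374, plus strand), was at 124, 99.2 and 113 FPKM in siNC and at 91.9, 77.7 and 90.6 FPKM in siRBM8A. The siRBM8A libraries were all below the siNC libraries. For RPL15 the log2 fold change was -0.36 (SE 0.122, limma adjusted p = 0.125; 0.00421 with the replicate block). RPL28 (chr19:55385345-55403250, plus strand), a large-subunit protein found in animals but not in budding yeast, was at 137, 174 and 139 FPKM in siNC and at 157, 244 and 181 FPKM in siRBM8A. Its groups overlapped, with a log2 fold change of 0.35 (SE 0.185, limma adjusted p = 0.279; 0.0130 with the replicate block).

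The 3 stalk proteins recruit the elongation factors that hydrolyse GTP: RPLP0 forms the base, and RPLP1 and RPLP2 bind it as dimers. RPLP0 (chr12:120196686-120201235, minus strand) was at 281, 335 and 286 FPKM in siNC and at 318, 458 and 357 FPKM in siRBM8A. The groups overlapped, since siNC replicate 2 lay above siRBM8A replicate 1. For RPLP0 the log2 fold change was 0.32 (SE 0.154, limma adjusted p = 0.248; 0.0149 with the replicate block). RPLP1 and RPLP2 both had a log2 fold change of 0.15, with limma adjusted p of 0.622 and 0.510. Neither was called with the replicate block, where their adjusted p were 0.102 and 0.0517.

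The widest differences among all members were in paralogs of opposite direction. RPL22L1 (chr3:170864875-170870483, minus strand) encodes a close relative of RPL22 that can take its place in the ribosome. In mice the Rpl22 protein is known to hold down the Rpl22l1 mRNA. RPL22L1 was at 8.56, 4.96 and 7.12 FPKM in siNC and at 17.7, 9.59 and 15.4 FPKM in siRBM8A. Every siRBM8A library was above every siNC library, and in both groups replicate 2 was the lowest. RPL22L1 had a log2 fold change of 0.94 (SE 0.256, limma adjusted p = 0.0787; 0.00149 with the replicate block), which is 2.07-fold in mean FPKM.

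RPL22 itself (chr1:6185020-6209389, minus strand) was lower. It was at 22.2, 15.7 and 22.4 FPKM in siNC and at 17.9, 11.1 and 15.4 FPKM in siRBM8A. The groups overlapped, since siNC replicate 2 was below siRBM8A replicate 1, but within each replicate number siRBM8A was lower. RPL22 had a log2 fold change of -0.42 (SE 0.206, limma adjusted p = 0.244; 0.00616 with the replicate block). Rows named as RPL22 pseudogenes held 42.3 FPKM in all, more than the 17.4 FPKM of RPL22, and the sum of RPL22 and these rows had a log2 fold change of -0.40.

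The ratio of RPL22L1 to RPL22 was also taken within each library. On the log2(FPKM + 1) scale it was -1.28, -1.48 and -1.53 in siNC and -0.01, -0.19 and 0.00 in siRBM8A. The 2 groups did not overlap, and the 3 libraries of each lay close together: the means were -1.43 ± 0.134 and -0.07 ± 0.108 (SD, n = 3), a difference of 1.36, or 1.47 with a pseudocount of 0.1. In siNC RPL22L1 was below RPL22 in every library, and in siRBM8A the 2 genes were listed at about the same FPKM. RPL22 is one of the 7 genes of uncertain level, so the height of this ratio is uncertain. Summed with its named pseudogenes, RPL22 was at 55.0, 39.5 and 60.7 FPKM in siRBM8A, above RPL22L1 in every library. The exact two-sided permutation test gave p = 0.1, the smallest that this design allows, and 0.167 after Benjamini-Hochberg adjustment over the 5 pairs. No 50-base window of the longest RPL22L1 transcript occurs in RPL22, and 0.701% of these windows occur in any other gene.

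RPS27L (chr15:63125872-63158021, minus strand), a near copy of RPS27 whose human gene is a target of p53, lay on the opposite side from RPL22L1. It was at 23.8, 15.0 and 19.6 FPKM in siNC and at 13.0, 6.57 and 10.1 FPKM in siRBM8A. All siRBM8A libraries were below all siNC libraries, again with replicate 2 lowest in each group. The log2 fold change was -0.93 (SE 0.255, limma adjusted p = 0.0789; 0.00166 with the replicate block), which is 0.508 times the siNC mean. Its parent RPS27 was at 638, 666 and 631 FPKM in siNC and at 619, 725 and 658 FPKM in siRBM8A, with overlapping groups and a log2 fold change of 0.05 (limma adjusted p = 0.791). The log2 ratio of RPS27L to RPS27 was -4.69, -5.38 and -4.94 in siNC and -5.47, -6.58 and -5.89 in siRBM8A. These groups did not overlap either, and the means differed by -0.98 (exact permutation p = 0.1, adjusted 0.167).

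The other 3 tested paralogs differed less. RPL26L1 (chr5:172958729-172969771, plus strand), a relative of the tunnel-exit protein RPL26, was at 15.9, 16.6 and 16.0 FPKM in siNC and at 17.3, 19.4 and 19.7 FPKM in siRBM8A. The groups did not overlap, and the log2 fold change was 0.20 (SE 0.0938, limma adjusted p = 0.228; 0.0356 with the replicate block), but 48.6% of its windows occur in other genes. RPL7L1 (chr6:42879618-42889925, plus strand), which resembles a yeast assembly factor, was at 21.7, 21.3 and 22.5 FPKM in siNC and at 25.6, 20.9 and 25.7 FPKM in siRBM8A. Replicate 2 of siRBM8A was below all siNC libraries while the other 2 were above them, and the log2 fold change was 0.13 (SE 0.110, limma adjusted p = 0.507). RPL36AL (chr14:49618519-49620685, minus strand), a near copy of RPL36A, which contacts transfer RNA at the exit site, was at 217, 234.6 and 234 FPKM in siNC and at 186, 187 and 208 FPKM in siRBM8A. Its groups did not overlap, with a log2 fold change of -0.24 (SE 0.0938, limma adjusted p = 0.168; 0.0154 with the replicate block).

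Against their parents, RPL7L1 had a log2 ratio higher by 0.23 in siRBM8A, with no overlap (exact permutation p = 0.1, adjusted 0.167). The ratio of RPL26L1 to RPL26 differed by 0.25 and that of RPL36AL to RPL36A by -0.17, both with overlapping groups (exact permutation p = 0.4 and 0.5, both 0.5 after adjustment). RPL26 and RPL36A, like RPL22, are among the 7 genes of uncertain level, so that the height of these 2 ratios is uncertain as well. For RPL7, 46.0% of its 50-base windows occur in other genes and its named pseudogenes held 170 FPKM. The height of the ratio of RPL7L1 to RPL7 is therefore uncertain too. Of the 50-base windows of the longest RPL36AL transcript, 14 occur in RPL36A, and in the other 4 pairs no window of the paralog occurs in its parent.

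**Figure D3:**
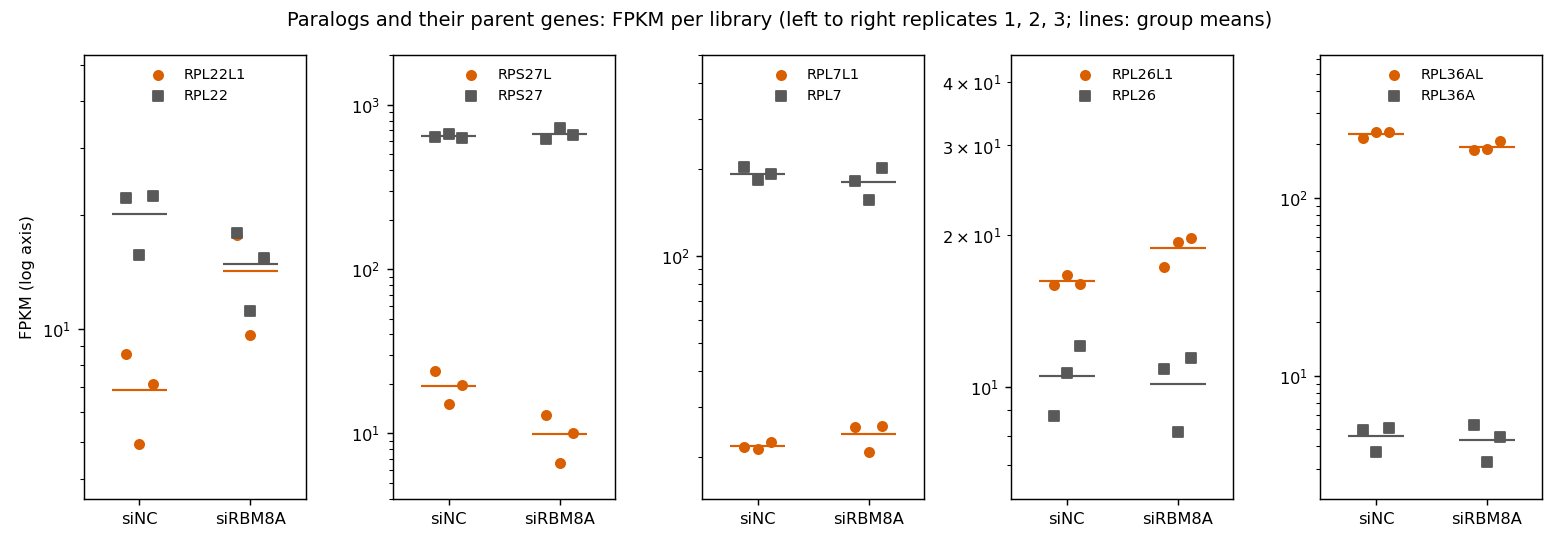
FPKM (log axis) of the 5 tested paralogs (orange circles) and their parent genes (grey squares) in the 3 siNC and 3 siRBM8A libraries, with lines at the group means. RPL22L1 lies well below RPL22 in siNC and at about its listed level in siRBM8A, though the level of RPL22 is uncertain. RPS27L is lower in all siRBM8A libraries while RPS27 is not, and the other 3 pairs differ less.

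The libraries differed by the GC content of transcripts, and replicate 2 of each group stood apart in this, among the members as over all genes tested. Across the 82 members the deviation of a library from each gene's group mean was set against GC content. The correlation was r = 0.618 in siNC replicate 2 and r = 0.644 in siRBM8A replicate 2. Over all genes tested these values were 0.656 and 0.737. In the other 4 libraries r was between -0.60 and -0.45 among the members. The deviations within a group cancel out, so opposite values there follow in part from replicate 2. These are descriptions over genes that share their libraries, not tests. The 28 members of lowest GC content (37.4 to 45.1%) had a median deviation of -0.15 in siRBM8A replicate 2, and the 28 members of highest GC content (50.5 to 63.7%) had 0.24. The log2 fold change itself correlated with GC content at r = 0.28 and rho = 0.43 (n = 82), against r = 0.33 and rho = 0.37 over all genes tested. Its median was -0.10 in the 28 lowest, 0.08 in the 26 between and 0.12 in the 28 highest.

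**Figure D4:**
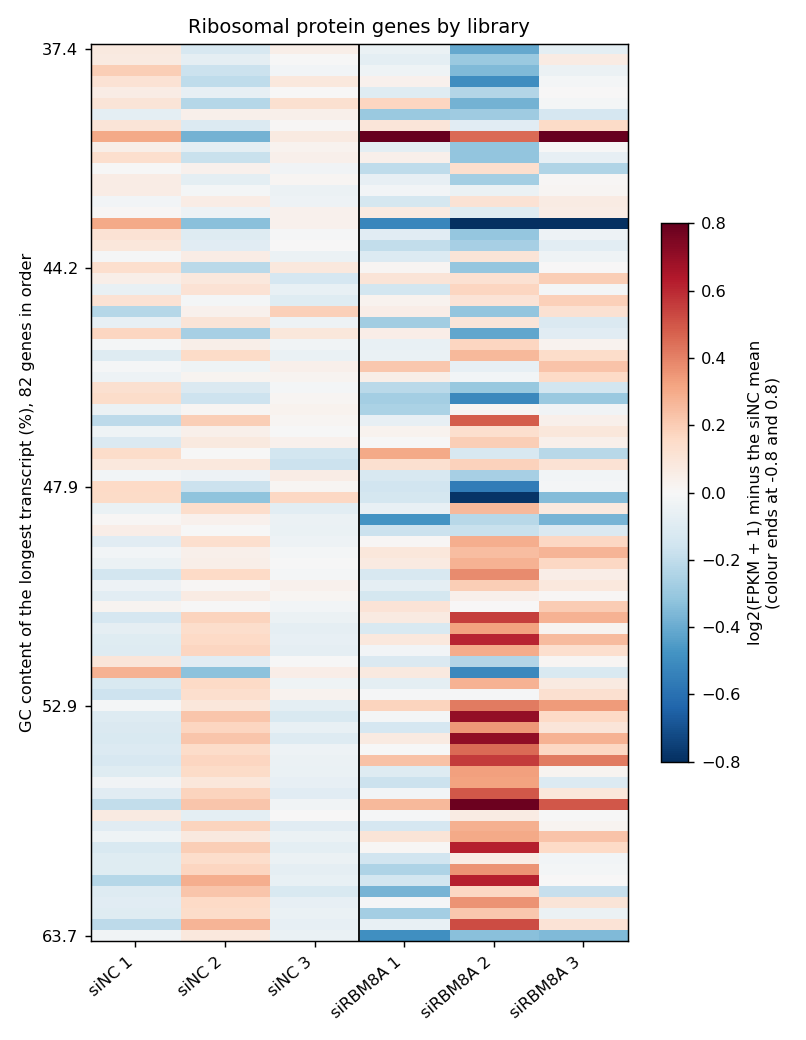
Each row is 1 of the 82 tested ribosomal protein genes, ordered by the GC content of its longest transcript from 37.4% at the top to 63.7% at the bottom, and each column a library; colour gives log2(FPKM + 1) minus the siNC mean. The replicate 2 library of both groups is lower at the top and higher at the bottom, more so in siRBM8A.

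Each library was then corrected for its GC trend over all genes. The correlation of the log2 fold change with GC content became -0.08, and the medians of the 3 classes became 0.02, 0.09 and 0.04. limma then called 12 of the 82 members (14.6%), against 31.7% of all genes tested. These were RPL7L1, RPL12, RPL13A, RPL22L1, RPL26L1 and RPS9 as higher, and RPL15, RPL35, RPL36, RPS15, RPS26 and RPS27L as lower. After correction the log2 fold changes were 1.05 for RPL22L1 (limma adjusted p = 0.00441), -0.83 for RPS27L (0.0121), -0.54 for RPL35 (0.0103), 0.43 for RPS9 (0.00725) and 0.33 for RPL13A (0.00585). RPL22 was not called, at -0.41 (limma adjusted p = 0.132). RPL36AL went from -0.24 to -0.13 (limma adjusted p = 0.461) and RPS2 from 0.26 to 0.18 (0.157). With the correction and the replicate block together, 29 members were called (35.4%), against 40.9% of all genes. Of these 29, 18 were higher (22% of members, against 20.1% of all genes) and 11 were lower (13.4%, against 20.8%).

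Without both replicate 2 libraries, limma called 8 members (9.76%), against 14.4% of all genes tested. RPL13A, RPL22L1 and RPS9 were higher, and RPL15, RPL22, RPL35, RPS26 and RPS27L were lower. All 8 had the same direction as in the 6 libraries. Their log2 fold changes included 0.99 for RPL22L1 (limma adjusted p = 0.0155) and -0.86 for RPS27L (0.0274). Over the 82 members, the log2 fold changes with and without the replicate 2 libraries correlated at r = 0.978, as values that share 4 libraries.

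**Figure D5:**
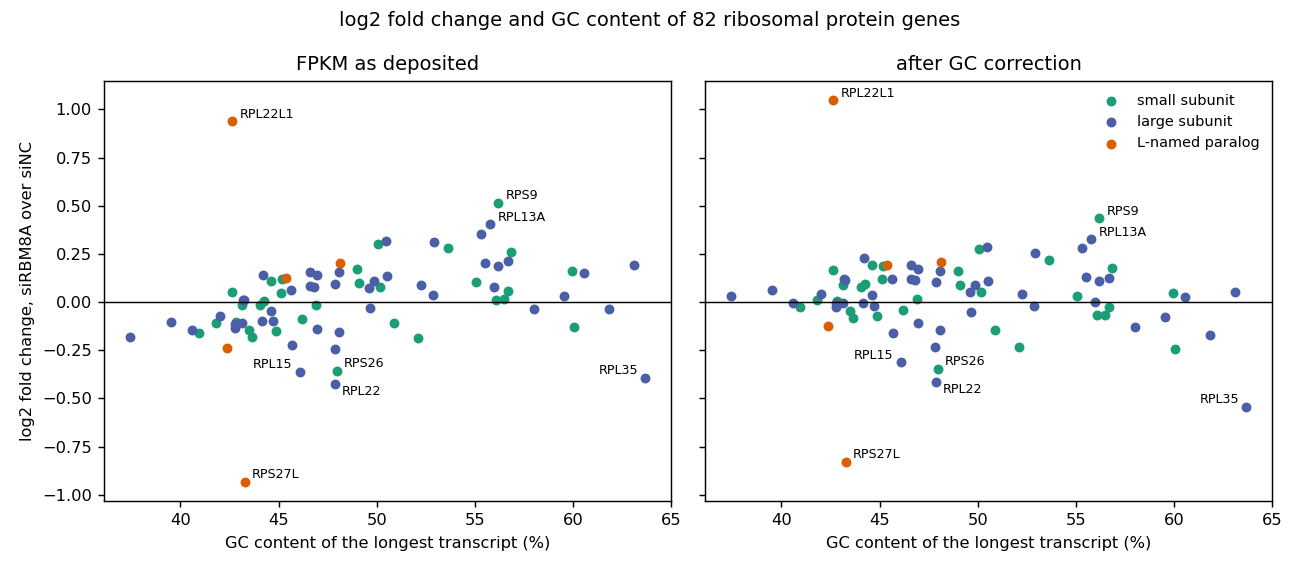
The log2 fold change (siRBM8A over siNC) of the 82 tested ribosomal protein genes against the GC content of the longest transcript, for the FPKM as deposited (left) and after GC correction (right). The upward trend on the left (r = 0.28) is gone on the right (r = -0.08), while RPL22L1, RPS9 and RPL13A stay above most members and RPS27L, RPL35 and RPL22 below them.

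The members took a somewhat larger share of the library in siRBM8A, within overlapping groups. Their summed FPKM was 5.82%, 6.24% and 5.87% of the FPKM sum in siNC and 6.16%, 7.07% and 6.42% in siRBM8A. In each replicate number the siRBM8A library was higher, but siNC replicate 2 was above siRBM8A replicate 1. The means were 5.98 ± 0.231% and 6.55 ± 0.470% (SD, n = 3), a difference of 0.571 percentage points for which no test was made. Without siRBM8A replicate 2 the difference was 0.310 percentage points, and without both replicate 2 libraries it was 0.443. Of the FPKM of nuclear protein-coding genes alone, the members took 7.997 ± 0.0926% in siNC and 8.50 ± 0.310% in siRBM8A (SD, n = 3). These shares did not overlap, but siNC replicate 2 was at 8.10% and siRBM8A replicate 1 at 8.16%. Of the recovered fragments the members took 4.86 ± 0.151% and 5.28 ± 0.327% (SD, n = 3). Those shares overlapped, with siNC replicate 2 at 5.03% and siRBM8A replicate 1 at 4.96%. The FPKM sums that divide the first share were 291718 to 300270 in siNC and 276383 to 291435 in siRBM8A.

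Members that host snoRNA genes in their bodies numbered 28 of the 82. Their median log2 fold change was 0.07, with 21 above 0, and that of the other 54 was -0.02, with 25 above 0. With the replicate block, 6 of the 28 hosts were called higher and 3 lower, and 9 and 7 of the other 54, where 18.9% of all genes tested were called higher and 21.3% lower. The hosts include RPL4 with 5 snoRNA genes and RPL13A, RPL7A and RPL23A with 4 each. RPL4 had a log2 fold change of 0.06.

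Genes that work beside the ribosomal proteins were read from lists in the same fit. FAU, which encodes a ribosomal protein fused to a ubiquitin-like protein, and RACK1, a small-subunit protein outside the naming rule, had log2 fold changes of 0.14 and 0.11. Neither was called by limma, with or without the replicate block (adjusted p = 0.559 and 0.694 without it). Of 19 tested elongation factor and other TOP mRNA genes, none was called by limma and 5 had an unadjusted p under 0.05, against 5.59% and 26.3% of all genes. The median of this list was 0.14, and with the replicate block 9 were called higher and 2 lower, against 18.9% and 21.3% of all genes. EEF1D, a subunit of the exchange factor of elongation factor 1, was at 16.9, 21.0 and 18.5 FPKM in siNC and at 24.7, 31.7 and 27.2 FPKM in siRBM8A, with no overlap (log2 fold change 0.54, limma adjusted p = 0.0590; 0.00194 with the replicate block). EIF3F, a subunit of initiation factor 3, also had no overlap, at 10.7, 12.1 and 11.3 FPKM against 14.3, 19.2 and 15.4 FPKM (log2 fold change 0.47, limma adjusted p = 0.0783; 0.00576 with the replicate block).

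Of 39 tested assembly and nucleolar genes, 2 rose and 1 fell, near the background of 5.59% of all genes, with a list median of -0.02. NOP14, an assembly factor of the small subunit, rose from 20.3, 19.8 and 20.1 FPKM to 28.7, 27.4 and 30.3 FPKM (log2 fold change 0.50, SE 0.0875, limma adjusted p = 0.0303). NOB1, the nuclease that makes the last cut of the small-subunit RNA, rose from 21.1, 24.7 and 23.3 FPKM to 30.04, 36.4 and 34.3 FPKM (log2 fold change 0.52, SE 0.113, limma adjusted p = 0.0470). UTP20, another small-subunit assembly factor, fell from 7.25, 5.72 and 6.89 FPKM to 4.31, 3.60 and 4.54 FPKM (log2 fold change -0.56, SE 0.124, limma adjusted p = 0.0492). In all 3 the groups did not overlap, and with the replicate block 10 of the 39 were called higher and 7 lower, against 40.2% of all genes in both directions.

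Of 16 tested genes of RNA polymerase I, which transcribes the ribosomal RNA precursor, POLR1E rose and none fell, near the background of 5.59% of all genes, with a list median of 0.09. POLR1E was at 10.4, 10.8 and 9.91 FPKM in siNC and at 13.9, 15.8 and 17.5 FPKM in siRBM8A (log2 fold change 0.55, SE 0.110, limma adjusted p = 0.0384), with no overlap. With the replicate block 5 of the 16 were called higher and 3 lower, against 18.9% and 21.3% of all genes. Of 18 tested regulators of ribosomal protein mRNA and of the surveillance of free ribosomal proteins, none was called by limma, and 3 had an unadjusted p under 0.05, against 5.59% and 26.3% of all genes. With the replicate block 3 were called higher and 5 lower, against 18.9% and 21.3%. HEATR3, a carrier that brings RPL5 into the nucleus, was at 8.16, 6.46 and 6.87 FPKM in siNC and at 5.10, 3.70 and 4.53 FPKM in siRBM8A (log2 fold change -0.59, limma adjusted p = 0.0549; 0.00313 with the replicate block). EIF4EBP2, a repressor of cap-dependent translation, was at 24.8, 22.8 and 23.8 FPKM in siNC and at 20.6, 16.1 and 19.6 FPKM in siRBM8A (log2 fold change -0.33, limma adjusted p = 0.131; 0.0120 with the replicate block). Neither gene's groups overlapped.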

How the data were processed

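Polyadenylated RNA of 6 AGS cultures, 3 per siRNA and called biological replicates by the labels, was sequenced. The deposited values are FPKM per gene, made by the authors; HISAT2, StringTie and GRCh38 stand in the submitters' processing notes, with no version or role. No source used here gives the strand setting, the filters or the handling of reads with several matches. Titles gave the groups. All 58735 gene identifiers matched GENCODE 29, which gave coordinates, exons and GC content of the longest transcript. FPKM times union exon length moved in equal steps within a library (100% of values, tolerance 0.001 fragments), which gave back the fragments.

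Groups were compared with limma 3.58.1 (R 4.3.3) on log2(FPKM + 1), with variance trend, two-sided, for 12678 genes (mean FPKM 1 or more), with Benjamini-Hochberg adjustment over all of them and calls at 0.05. Fold changes on this scale understate the change of low genes. Paralog ratios and RBM8A were tested by exact permutation. The replicate block is given beside results whose call it changes: same-numbered libraries deviated together by more than 0.1 in all 3 numbers. The labels name no shared passage or day, so this pairing rests on the data, and it is weakest for replicate 3. Differently numbered libraries were not set beside it. GC correction subtracted a loess curve (span 0.3) of each library's deviation on GC content; it also removes real change that follows GC. Shared sequence was counted in 50-base windows of the longest transcript of each member, looked for in all transcripts of other genes.

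The members, lists and tests were chosen with earlier results of these data known. Named are the 5 highest and 5 lowest members by log2 fold change, the 3 highest by level, all paralogs, members under the filter, and of each list up to 4 called genes or the 2 of smallest p. TMM was not used on FPKM and median-ratio scaling took its place. Tables were made with Python 3.11.15 and pandas 2.3.3, plots with matplotlib 3.10.9. The test was checked on simulated data. Proteins were not compared here, and some items, among them genes that this rule would name, are not reported here.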

Additional observations from a re-analysis of the deposited data

How the results depend on the processing

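No member was called by limma under another pseudocount (0.1), filter (none or 5 FPKM), median-ratio scaling or no variance trend. None was called among protein-coding genes only, or when each member was summed with its named pseudogenes. Of all genes in these fits, 5.48% were called with the pseudocount of 0.1, 0.846% with no filter and 7.72% with the filter of 5 FPKM. The share was 5.65% with median-ratio scaling, 5.21% with no variance trend, 8.56% among protein-coding genes and 5.66% with pseudogenes summed. The number called was 25 with the replicate block (against 40.2% of all genes), 13 of the 14 named members among them. It was 12 with GC correction (against 31.7% of all genes) and 29 with both (40.9%). It was 2 with limma-voom on recovered fragments (8.01%), 1 with equal FPKM sums (RPL35, against 6.25%) and 4 at an adjusted p under 0.1 (13.2%). Chosen after seeing the data, leaving out both replicate 2 libraries gave 8 and limma-voom with the replicate block gave 43 (52.4% of members, against 48.5% of all genes). Of these 43, 31 were higher (37.8%, against 25.4%) and 12 were lower (14.6%, against 23.1%). Leaving out 1 library at a time gave 0 to 1 (RPL22L1 without siRBM8A replicate 2); over all 12678 genes, these fits called 628 without siRBM8A replicate 2, 398 without siRBM8A replicate 1, 132 without siNC replicate 2 and 2 to 12 in the other 3. The cause of these moves was not tested. RBM8A ranged from -2.05 to -1.83 with 1 library left out, and lost its call (adjusted p = 0.0544) without siRBM8A replicate 3. The 14 named members (RPL7L1, RPL13A, RPL15, RPL22, RPL22L1, RPL26L1, RPL28, RPL35, RPL36AL, RPLP0, RPS2, RPS9, RPS26 and RPS27L) kept their sign under all 20 alternatives. The replicate block, both filters, no variance trend and protein-coding genes only cannot change a sign, as they leave the log2 fold change as it is. Many of the 14 were also chosen by their log2 fold change. Without siRBM8A replicate 2, RPL28 was at 0.17, RPLP0 at 0.17, RPS2 at 0.083, RPL22 at -0.24 and RPL7L1 at 0.22. RPL7L1 was at 0.082 and 0.077 without siRBM8A replicates 1 and 3. The paralog ratio differences kept their sign, but that of RPL36AL ranged from -0.30 to -0.014 (without siRBM8A replicates 2 and 1) and was -0.031 and -0.25 without siNC replicates 2 and 1. That of RPL26L1 was 0.092 without siRBM8A replicate 2 and 0.14 without siNC replicate 3. With 1 library left out no p under 0.2 can be given.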

Other observations

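The pseudogenes of these genes held a measurable part of the table. It lists 1144 rows named as a ribosomal protein gene followed by P and digits, of which 461 were above 0 in some library and 88 had a mean of at least 1 FPKM. Their summed FPKM was 1.15 ± 0.0441% of the siNC sum and 1.24 ± 0.0580% of the siRBM8A sum (SD, n = 3). For 8 members the named pseudogenes together were above the gene itself. The widest gaps were RPS28, at 119 FPKM with 563 FPKM in RPS28P7 alone, and RPL9, at 43.3 FPKM with 329 FPKM in RPL9P9. How much of this is reads of the parent mRNA was not tested, since the sources used here do not say how reads with several matches were handled. Of the 88, RPL18AP7 was called by limma, at 0.459, 0.718 and 0.457 FPKM in siNC and 1.35, 2.00 and 1.38 FPKM in siRBM8A (adjusted p = 0.0466), and 18 had an unadjusted p under 0.05, against 5.59% and 26.3% of all genes tested. With the replicate block limma called 21 of the 88 higher and 5 lower, against 18.9% and 21.3% of all genes. The pseudogene row RPL13AP5 had a log2 fold change of 0.39, beside 0.40 for RPL13A, and RPS2P5 had 0.37, beside 0.26 for RPS2.

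Some members that are often used to follow ribosome function or stress are given here by choice after their values were seen. RPS6, the substrate of the S6 kinases, was at 291, 251 and 273 FPKM in siNC and at 290, 255 and 301 FPKM in siRBM8A, with overlapping groups and a log2 fold change of 0.05 (limma adjusted p = 0.790). RPL5 and RPL11, which bind MDM2 as part of the 5S particle, had log2 fold changes of -0.18 and 0.14 (limma adjusted p = 0.420 and 0.431), and RPL5 was called with the replicate block (limma adjusted p = 0.0399). MDM2 and CDKN1A, the p53 targets on the regulator list, had 0.19 and -0.22 (limma adjusted p = 0.591 and 0.309), and CDKN1A was called with the replicate block (limma adjusted p = 0.0125). RPS19, the gene most often mutated in Diamond-Blackfan anaemia, was at 434, 522 and 434 FPKM in siNC and at 421, 563 and 469 FPKM in siRBM8A, a log2 fold change of 0.06 (limma adjusted p = 0.824).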
